A study of Mus musculus with 10 samples.

Results

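The imprinted growth-control genes are 10 loci that are usually transcribed from 1 parental allele: H19, Igf2, Igf2r, Meg3, Cdkn1c, Ndn, Peg3, Grb10, Plagl1 and Mest. They were chosen by gene symbol, with earlier results of these data known, and all 10 were found among the 26146 genes of the count table. Expression was measured by RNA-seq of polyadenylated RNA from bulk-sorted Lin- Sca1+ Kit+ CD48- CD150+ bone marrow cells, a gate that enriches hematopoietic stem cells (HSCs). The Cited2 CKO group was 5 Cited2 fl/fl;Vav-iCre mice, in which Cre is driven in blood-forming cells by Vav regulatory elements. The Cited2 CTL group was 5 mice, labelled wildtype and described in the study as Cited2 fl/fl mice without the Cre, with 1 library per mouse in both groups. All mice were on the C57BL/6J background and 8 to 12 weeks old.

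At an imprinted locus, DNA methylation set in the egg or sperm marks 1 parental copy of a control region. As a result, usually only 1 copy of the gene is expressed, which need not be the unmethylated copy. Genes expressed from the maternal copy tend to restrain growth, among them the decoy receptor Igf2r, the cell cycle inhibitor Cdkn1c and the adaptor Grb10, whereas genes expressed from the paternal copy include the growth factor Igf2. In bone marrow, several of these genes are known for high expression in quiescent HSCs, where CDKN1C restrains division and the maternal H19 locus limits IGF2 signaling through the IGF1 receptor. The RNA-seq counts used here measure total transcript and do not separate the parental alleles.

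Total counts ran from 3058690 to 4548795 per CTL library and from 3500215 to 4315029 per CKO library, and no library pair was identical. Cited2, the deleted gene, had 101, 171, 162, 222 and 160.2 CPM (counts scaled to a common library size with TMM factors) in CTL 1 to 5. It had 3.80, 4.21, 120.1, 5.00 and 8.30 CPM in CKO 1 to 5. The library labelled CKO 3 thus lay within the CTL range for the deleted gene. Values without CKO 3 are given for Igf2r, Grb10, Cdkn1c, Ndn, Meg3 and Mest. With all libraries, Cited2 itself did not reach an adjusted p under 0.05 (log2 fold change -2.51, standard error 0.94, edgeR adjusted p = 0.328). Without CKO 3 the Cited2 mean in CKO was 3.26% of CTL (exact permutation test, p = 0.0159). The summed level of 10 HSC markers was 1987 to 2245 CPM in CTL and 1766 to 1997 CPM in CKO (exact permutation test, p = 0.0159), with Kit as the most abundant. The mRNA of Cd48, whose protein the sort gated against, was higher in CKO (21.6 ± 5.53 against 49.0 ± 9.16 CPM, SD, n = 5 each, log2 fold change 1.18, edgeR adjusted p = 0.0264). The part of these shifts in the results below was not tested, and in bulk samples fewer expressing cells and less RNA per cell cannot be told apart. None of the 10 was called. Summed markers of multipotent and lymphoid progenitor, erythroid, myeloid, B and T, megakaryocyte, stromal and endothelial cells gave permutation p-values of 0.587 to 0.992. Transcripts of these lists were not absent. In the same order, the most abundant gene of each list was Cd34 (mean 385.4 CPM), Tfrc (123.2), Lyz2 (226.8), Cd79b (55.9), Itga2b (237.3), Pdgfrb (13.3) and Tie1 (166.2). The neutrophil marker Ly6g was at 0 in every library, and Cd79a, Cd3e, Cd3d, Cd3g, Trac, Hba-a1 and Adipoq averaged under 1 CPM.

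The question asked of each gene was whether its level differed between CKO and CTL HSCs. Among the 10 imprinted growth-control genes, 2 were lower in CKO with no overlap between the groups, the IGF2 decoy receptor Igf2r (38.4% of the CTL mean) and the cell cycle inhibitor Cdkn1c (72.2%). Grb10 and Ndn averaged 82.6% and 85.5% of CTL with overlapping groups, while Peg3 and Mest varied widely within each group. H19 and Igf2 were at or near the detection limit in both genotypes. With edgeR's quasi-likelihood test and p-values adjusted over 14165 tested genes, 0 of the 8 genes that passed the filter on low counts were called at an adjusted p under 0.05 and a fold change above 20%, against 0.226% of all tested genes (17 up, 0.120%, and 15 down, 0.106%). DESeq2 called 2 of them, Igf2r and Cdkn1c, both lower, against 1.38% of its 13881 genes called down and 1.05% called up. On simulated counts with 200 changed genes, DESeq2 made 39 false calls and edgeR 7. At an unadjusted p under 0.05, edgeR gave 4 of the 8 lower in CKO (Igf2r, Cdkn1c, Grb10 and Ndn) and 0 higher, against 7.08% and 5.80% of all tested genes. Groups that did not overlap with CKO below CTL were found for 2 of the 8, against 1.98% of tested genes, and with CKO above CTL for 0 of the 8, against 1.35% (3.33% in either direction). The median log2 fold change of the 8 was -0.37, that of all tested genes 0.007, and 6 of the 8 values were below 0, against 49.0% of all tested genes. Because the genes were chosen with earlier results of these data known, these shares are descriptions and not a test of the group.

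**Figure D1:**
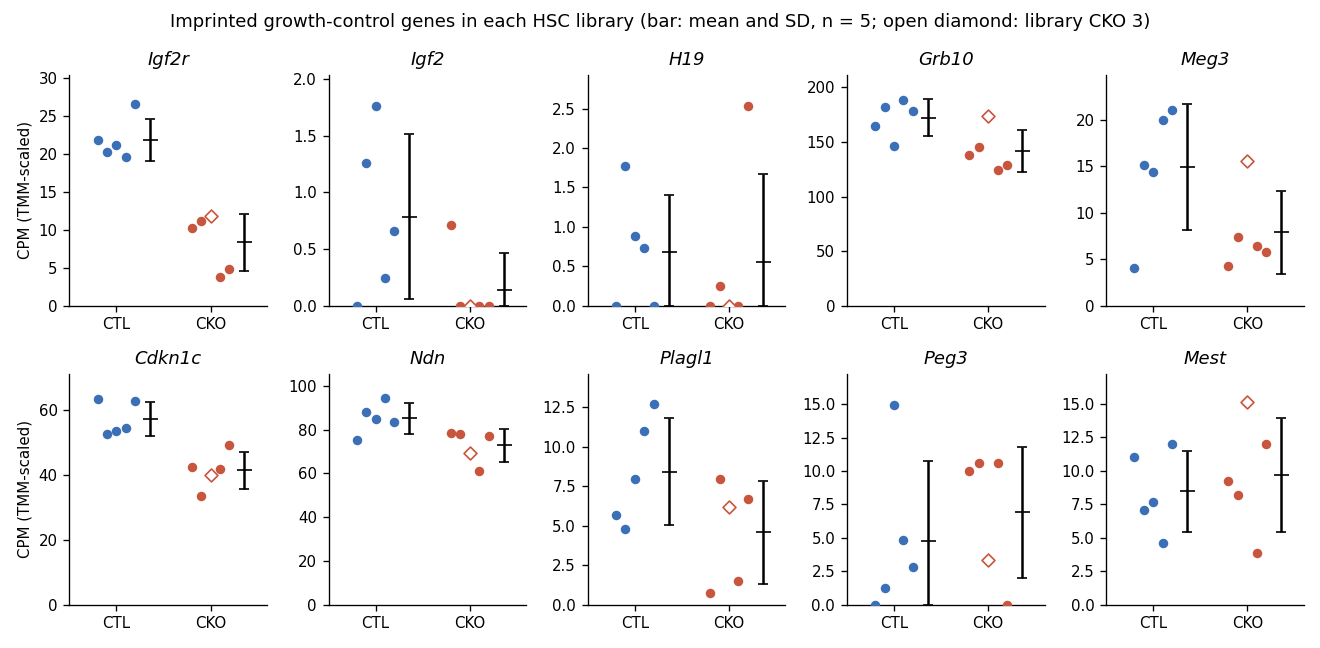
CPM of the 10 imprinted genes in each library, 5 CTL and 5 CKO, with the mean and SD beside each group (bars are clipped at 0) and the library CKO 3 as an open diamond. In the Igf2r and Cdkn1c panels every CKO point lies below every CTL point, and in the other 8 panels the groups overlap.

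Levels were compared between genes only after division by the deposited gene length (RPKM). In CTL HSCs the mean was 51.5 RPKM for Ndn, 33.3 for Grb10 and 29.5 for Cdkn1c, which placed these 3 at the 82.2, 70.4 and 66.9 percentile of tested genes. Ndn lay above the other two in every CTL library (45.6 to 57.1 RPKM), whereas Grb10 (28.3 to 36.5) and Cdkn1c (27.1 to 32.5) overlapped. They were followed, at much lower levels, by Mest (mean 3.06 RPKM), Igf2r (2.44), Plagl1 (1.6), Meg3 (1.16) and Peg3 (0.724). Each overlapped its neighbour in this order. Igf2r, at 2.18 to 2.97 RPKM, shared part of its range with Plagl1 (0.912 to 2.41) but none with Meg3 (0.311 to 1.63). H19 (0.259 RPKM) and Igf2 (0.185 RPKM) stood last and overlapped each other. In CKO the first 4 places were the same, Ndn 44.1, Grb10 27.5, Cdkn1c 21.3 and Mest 3.48 RPKM. Igf2r came after Peg3 in that order, with means of 0.937 and 1.04 RPKM and overlapping ranges. How the deposited lengths were defined is not given in the sources used here, and those of Ndn (1652 bases) and Peg3 (6624 bases) were shorter than their annotated exons (3694 and 13324 bases), so the order depends on that choice.

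**Figure D2:**
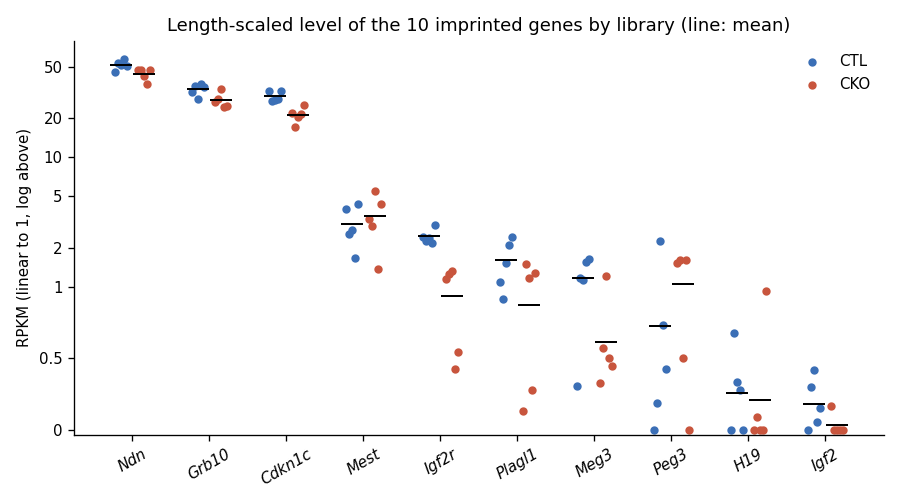
Length-scaled level (RPKM, axis linear to 1 and logarithmic above) of each of the 10 genes in the 5 CTL and 5 CKO libraries, with lines at the means. Ndn, Grb10 and Cdkn1c lie above 15 RPKM in every library, and the other 7 lie below 6 RPKM in every library.

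The ligand of the group is Igf2, an insulin-like growth factor that signals through the IGF1 and insulin receptors (ENSMUSG00000048583, GRCm38 chr7:142650766-142666816, minus strand). It had 0, 1.26, 1.76, 0.244 and 0.656 CPM in CTL and 0.713, 0, 0, 0 and 0 CPM in CKO. These values are 15 counts in all CTL libraries together and 3 counts in CKO, all 3 of them in CKO 1. A count of 0 allows up to 3 counts, or 0.656 to 1.00 CPM depending on the library, by counting error alone. The difference was not detectable at this depth (exact permutation test, p = 0.127), and Igf2 failed the filter of the model. In the annotation Gm49394 shares 3596 exon bases with Igf2 on the same strand, 62.8% of the Igf2 exons, and Igf2os and Mir483, which also overlap it, had 1 and 0 counts in all 10 libraries.

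H19 is a maternally expressed noncoding RNA that shares its control region with Igf2, and its start lies 72623 bases beyond the 3′ end of Igf2 on the same strand (chr7:142575529-142578143, minus strand). Its levels were 0, 1.77, 0.882, 0.731 and 0 CPM in CTL and 0, 0.247, 0, 0 and 2.53 CPM in CKO. The groups held 13 and 12 counts, of which 11 came from CKO 5 alone. H19 was thus at 0 in 5 of the 10 libraries, the means did not differ detectably (exact permutation test, p = 0.921), and Mir675, a microRNA within H19, had 2 counts in all.

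Igf2r encodes the cation-independent mannose-6-phosphate receptor, which carries IGF2 to the lysosome for degradation without signaling growth (chr17:12682406-12769664, minus strand). It was measured at 21.7, 20.2, 21.2, 19.5 and 26.5 CPM in CTL and at 10.2, 11.1, 11.8, 3.82 and 4.84 CPM in CKO. The highest CKO library was lower than the lowest CTL library, and CKO 4 and CKO 5 were below the other CKO libraries. The group means were 21.8 ± 2.74 and 8.37 ± 3.75 CPM (SD, n = 5 each), from 418 and 172 counts. The log2 fold change was -1.37 with a standard error of 0.31 (edgeR, unadjusted p = 0.000562, adjusted p = 0.0865), which placed Igf2r 92nd of all tested genes by p. The exact two-sided permutation test gave p = 0.00794, the smallest that 5 against 5 libraries can give. DESeq2 called the gene (log2 fold change -1.38, adjusted p = 0.00242). Over the 20 alternatives the value stayed between -1.53 and -1.2, with adjusted p-values from 0.00242 to 0.197. CKO 3, which retained Cited2 mRNA, was also below the CTL range for Igf2r, and without it the mean of the other 4 CKO libraries was 34.4% of CTL (exact permutation p = 0.0159, the smallest for 5 against 4).

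The start of Igf2r is shown because it held the most matches to ACGTG among the 8 imprinted growth-control genes with a promoter window. ACGTG is a form of the core of the hypoxia response element, whose factor HIF-1alpha competes with CITED2 for the coactivators CBP and p300. Promoter windows of 300 bases (250 before to 50 after a RefSeq start, GRCm38.p6) were at hand for 8 of the 10 genes in 15 windows, and not for H19 and Cdkn1c. Only ACGTG was searched, on both strands, and the form GCGTG was not. ACGTG occurred in 3 of the 15 windows, 1 each of Igf2, Igf2r and Plagl1, which is near the 19.6% of all 32851 windows that hold it. In the Igf2r window, at chr17:12769657-12769956 on the minus strand, it was matched 4 times, since each of the 2 palindromes in capitals matches on both strands with overlapping letters, beginning 48 and 7 bases before the start. Of all windows 0.746% held 4 or more matches. The Plagl1 window, at chr10:13090582-13090881 on the plus strand, had 1 such palindrome, 182 bases before the start. Both windows are printed 5′ to 3′ in the direction of transcription, with the matches in capitals. Both contained 70.7% GC, against a median of 52.7% over all windows, with 34 CpG in Igf2r and 26 in Plagl1 against a median of 7. A match is a description of letters that factors other than HIF-1alpha can also bind, and binding was not measured.
Igf2r: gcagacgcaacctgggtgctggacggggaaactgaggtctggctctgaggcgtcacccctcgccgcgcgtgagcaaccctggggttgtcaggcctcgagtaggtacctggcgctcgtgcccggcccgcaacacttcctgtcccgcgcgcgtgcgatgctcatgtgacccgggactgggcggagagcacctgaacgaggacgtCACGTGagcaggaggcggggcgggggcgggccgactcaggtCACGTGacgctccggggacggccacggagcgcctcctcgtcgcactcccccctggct
Plagl1: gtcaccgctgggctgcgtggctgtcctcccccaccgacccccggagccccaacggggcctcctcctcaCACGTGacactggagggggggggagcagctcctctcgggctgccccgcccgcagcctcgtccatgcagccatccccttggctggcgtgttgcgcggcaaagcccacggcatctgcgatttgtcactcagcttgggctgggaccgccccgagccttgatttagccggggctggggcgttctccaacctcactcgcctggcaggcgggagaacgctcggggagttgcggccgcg

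Airn is the paternally expressed noncoding RNA that silences the paternal Igf2r copy, and it begins in an Igf2r intron on the opposite strand with 0 shared exon bases. It had 10.7, 9.60, 9.41, 5.85 and 5.03 CPM in CTL and 2.38, 3.71, 4.02, 3.82 and 5.99 CPM in CKO. The counts behind these values were 10 to 38 per library. Only CKO 5 reached into the CTL range, and the log2 fold change was -1.02 with a standard error of 0.42 (edgeR, adjusted p = 0.332). Use of strand in the counting is not given in the sources used here, so intronic reads of Igf2r and reads of Airn cannot be told apart where they overlap.

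**Figure D3:**
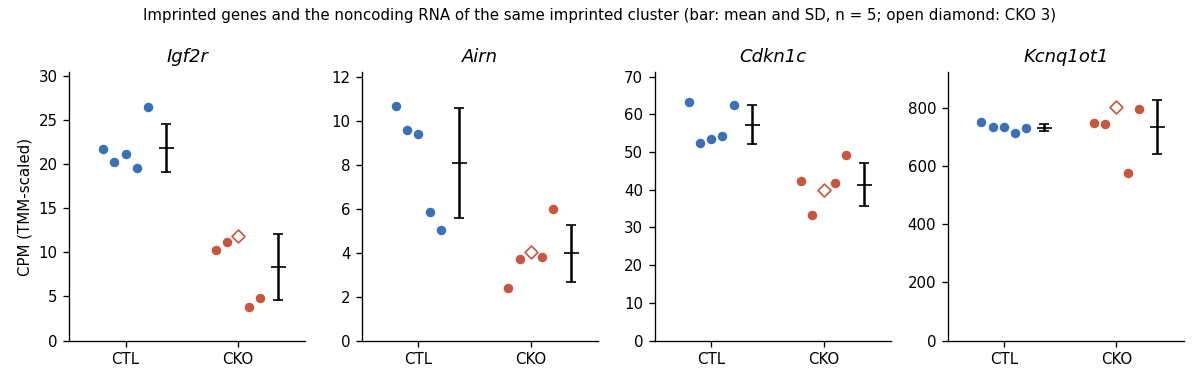
CPM per library of Igf2r and Cdkn1c, each beside the noncoding RNA of its imprinted cluster, Airn and Kcnq1ot1, with mean and SD (n = 5) and CKO 3 as an open diamond. Igf2r and Cdkn1c separate the groups, Airn overlaps through CKO 5, and Kcnq1ot1 averages 732 CPM in CTL and 734 CPM in CKO.

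Grb10 is an adaptor that binds the insulin and IGF1 receptors and dampens their signaling (chr11:11930508-12038683, minus strand). It had 165, 182, 146, 188 and 179 CPM in CTL and 138, 145, 173, 125 and 129 CPM in CKO. The CKO libraries other than CKO 3 were below every CTL library, and CKO 3 lay within the CTL range. Grb10 had a fitted difference of -0.28 on the log2 scale with a standard error of 0.10 (edgeR, unadjusted p = 0.0153, adjusted p = 0.274). The exact permutation p was 0.0397 with all libraries and 0.0159 without CKO 3, when the mean was 78.1% of CTL.

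Of the 20 further genes of the IGF axis and its adaptors, 14 were tested, with 7 higher and 7 lower in CKO, a median log2 fold change of -0.01 and none called in either direction. Only Igf2bp2 had an unadjusted p under 0.05. It encodes an RNA-binding protein named for its binding to Igf2 mRNA, and its mean was 30.6 ± 6.32 CPM in CTL and 19.97 ± 4.61 CPM in CKO (SD, n = 5 each; log2 fold change -0.62, edgeR adjusted p = 0.234). The ligand Igf1 (log2 fold change -0.47, edgeR adjusted p = 0.539) and the binding protein Igfbp7 (-0.65, adjusted p = 0.671) followed by p. The signaling receptors Igf1r (RPKM 10.84 and 10.85) and Insr (RPKM 16.08 and 15.93), named after their values were seen, had nearly equal length-scaled means in CTL and CKO, with log2 fold changes of 0.00 ± 0.11 and -0.02 ± 0.16 (standard error).

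Cdkn1c encodes p57, a CDK inhibitor that holds HSCs in quiescence (chr7:143458339-143461050, minus strand). It had 63.2, 52.5, 53.5, 54.3 and 62.6 CPM in CTL and 42.3, 33.4, 39.9, 41.7 and 49.3 CPM in CKO. All 5 CKO libraries, CKO 3 included, were below all 5 CTL libraries. The means were 57.2 ± 5.21 and 41.3 ± 5.69 CPM (SD, n = 5 each), from 1088 and 838 counts, and the log2 fold change was -0.47 with a standard error of 0.13 (edgeR, unadjusted p = 0.00280, adjusted p = 0.147, rank 270 of all tested genes by p). The exact permutation test gave p = 0.00794 with all libraries and 0.0159 without CKO 3, the smallest that each design can give, and DESeq2 called the gene at an adjusted p of 0.0453. An offset for GC content and length moved the value to -0.24 with adjusted p = 0.757 (edgeR), and at 59.4% GC Cdkn1c was the most GC-rich of the 10 transcripts. The antisense gene Gm44732 covers 30.7% of the Cdkn1c exon bases and is not a row of the count table.

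Kcnq1ot1, the paternally expressed noncoding RNA that silences the cluster holding Cdkn1c, was looked up after values were seen. Its level was 732 ± 13.2 CPM in CTL and 734 ± 91.3 CPM in CKO (n = 5 each, SD), and CKO 4 was lowest at 577 CPM (log2 fold change 0.00, standard error 0.08, edgeR adjusted p = 0.987). Of 7 other genes named as CDK inhibitors 5 were tested, 2 higher and 3 lower, with a median log2 fold change of -0.08 and none called. The 2 higher, named after their values were seen, were Cdkn1a (0.03) and Cdkn3 (0.09). Cdkn1b (log2 fold change -0.28), Cdkn2c (-0.21) and Cdkn2d (-0.08) had the smallest p-values, with edgeR adjusted p from 0.579 to 0.780. Among 15 proliferation genes, all tested, 9 were higher, the median log2 fold change was 0.10 and none was called by edgeR. Of the 15, 4 were higher at an unadjusted edgeR p under 0.05, against 5.80% of all tested genes. These are RNA levels. By Ki67 and DAPI staining, the paper reported no difference in HSC quiescence and a smaller share of actively cycling HSCs without Cited2. From the same RNA-seq, its gene set enrichment analysis reported E2F and c-MYC targets as activated without Cited2. The mitotic cyclin Ccnb1 was higher in CKO with no overlap between groups (83.7 ± 6.83 against 114 ± 11.4 CPM, SD, n = 5 each, log2 fold change 0.45, edgeR adjusted p = 0.0781), and DESeq2 called it. Bub1, a spindle checkpoint kinase, and Tyms, which makes thymidylate, had log2 fold changes of 0.38 and 0.27 (edgeR adjusted p = 0.178 and 0.309).

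Ndn encodes necdin, a growth suppressor that binds E2F1 and p53 (chr7:62346569-62350262, plus strand). It had 75.2, 88.2, 84.7, 94.3 and 83.4 CPM in CTL and 78.4, 77.9, 69.5, 60.9 and 77.2 CPM in CKO. The groups overlapped only through CTL 1, which was lower than 3 CKO libraries, and CKO 4 was the lowest of all. For Ndn the fitted log2 fold change was -0.23 with a standard error of 0.10 (edgeR, unadjusted p = 0.0457, adjusted p = 0.379; exact permutation p = 0.0317). Without CKO 3 the exact permutation p was 0.0635.

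Meg3 is a maternally expressed noncoding RNA of the Dlk1-Meg3 cluster (chr12:109541001-109571726, plus strand). Its levels were 4.01, 15.2, 14.4, 19.99 and 21.0 CPM in CTL and 4.28, 7.42, 15.6, 6.47 and 5.76 CPM in CKO. CTL 1 stood with the CKO libraries, and CKO 3 stood with the CTL libraries. For Meg3 the fitted log2 fold change was -0.92 with a standard error of 0.44 (edgeR, adjusted p = 0.399; exact permutation p = 0.127). Without CKO 3 it was -1.32 (edgeR adjusted p = 0.231), and the mean of the other 4 CKO libraries was 40.1% of CTL (exact permutation p = 0.0794). Mir1906-1, a microRNA gene inside Meg3, had 27 counts in CTL and 8 in CKO. The cluster's paternally expressed ligand Dlk1 (0.534 and 0.677 CPM) failed the filter, and Rian, a further maternal noncoding RNA of that cluster, had a log2 fold change of 0.41 (edgeR adjusted p = 0.824); both were looked up after values were seen.

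Plagl1 and Peg3 encode zinc finger proteins, and Plagl1 is known as a regulator of other imprinted genes, Igf2 and H19 among them. Plagl1 (chr10:13060504-13131694, plus strand) lies on the same chromosome as Cited2, and its end is 4591524 bases from the Cited2 start. It had 5.68, 4.80, 7.94, 10.97 and 12.7 CPM in CTL and 0.713, 7.92, 6.15, 1.47 and 6.68 CPM in CKO. CKO 1 and CKO 4, with 3 and 5 counts, were below every CTL library, and the other 3 CKO libraries lay within the CTL range. The log2 fold change was -0.87 with a standard error of 0.58 (edgeR, adjusted p = 0.568; exact permutation p = 0.127).

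Peg3 (chr7:6703892-6730431, minus strand), a paternally expressed gene known in adult stem cells, had 0, 1.26, 14.99, 4.87 and 2.84 CPM in CTL and 9.98, 10.6, 3.31, 10.6 and 0 CPM in CKO. Each group held 1 library at 0 and at least 1 near or above 10 CPM, so the genotypes could not be separated. The log2 fold change was 0.52 with a standard error of 0.98 (edgeR, adjusted p = 0.864), and it was 1.57 without CTL 3, which alone held 51 of the 89 CTL counts. Usp29, its neighbour in the same cluster, looked up after values were seen, had a log2 fold change of 0.92 (edgeR adjusted p = 0.692). The Peg3 window is shown because it was the only one of the 15 with GGGGCCCC, a core bound by PLAGL1, found in 1.08% of all windows when both strands were searched. It lies at chr7:6730370-6730669 on the minus strand (RefSeq, GRCm38.p6), contains 61.3% GC and 13 CpG, and is printed 5′ to 3′ with the match, 201 bases before the start, in capitals. Binding was not measured.
Peg3: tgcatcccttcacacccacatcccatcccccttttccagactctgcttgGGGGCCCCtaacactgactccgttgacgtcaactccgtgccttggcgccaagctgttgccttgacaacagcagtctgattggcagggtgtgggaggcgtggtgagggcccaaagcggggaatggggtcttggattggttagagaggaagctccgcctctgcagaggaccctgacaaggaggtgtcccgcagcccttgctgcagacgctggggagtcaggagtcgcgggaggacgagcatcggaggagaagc

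The last motif searched, GCCNNNGGC on both strands, bound by AP-2 factors, for which CITED2 acts as a coactivator, occurred in 5 of the 15 windows, of Igf2, Meg3, Plagl1 and Mest, and in 16.6% of all windows. The 2 Mest windows among them overlap almost completely and hold the same match.

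Mest, a paternally expressed hydrolase-like protein (chr6:30723547-30748465, plus strand), had 11.04, 7.07, 7.64, 4.63 and 12.03 CPM in CTL and 9.27, 8.16, 15.1, 3.82 and 11.98 CPM in CKO. The groups overlapped almost entirely. For Mest the fitted log2 fold change was 0.19 with a standard error of 0.40 (edgeR, adjusted p = 0.880), and it was -0.02 without CKO 3. Copg2, on the opposite strand, shares 912 exon bases with Mest, 23.1% of the Mest exons, and its log2 fold change was 0.22 (edgeR adjusted p = 0.367).

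**Figure D4:**
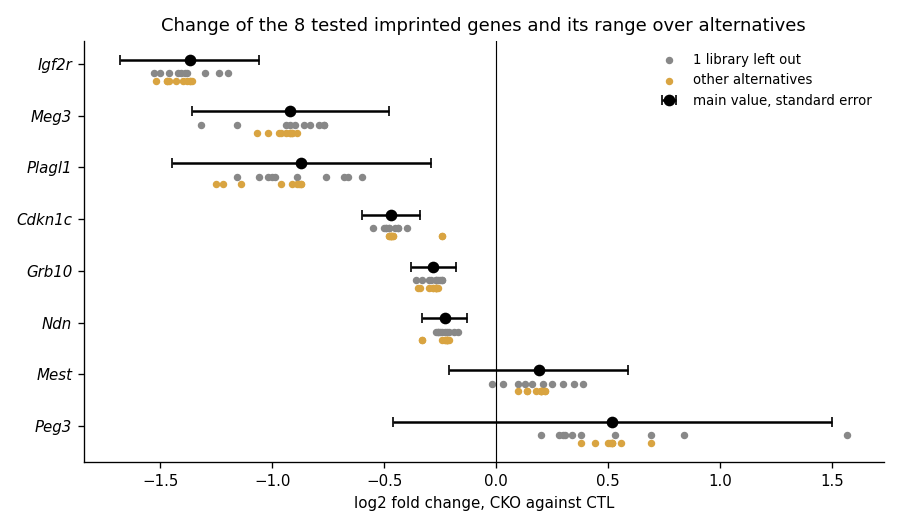
Log2 fold change of CKO against CTL for the 8 tested imprinted genes (black, with standard error), with the values when 1 library was left out (grey) and under the other alternatives (gold). Igf2r stays between -1.53 and -1.2, Cdkn1c reaches -0.24 with the GC and length offset, and Peg3 spans 0.20 to 1.57.

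The wider set of imprinted genes was split in direction. Of 59 other imprinted genes, 38 were tested, of which 21 were higher and 17 lower in CKO, none was called, and the median log2 fold change was 0.01. At an unadjusted edgeR p under 0.05 there were 2 higher and 5 lower of the 38, against 5.80% and 7.08% of all tested genes. The smallest p-values belonged to the neuronal scaffold gene Ppp1r9a (log2 fold change 0.30), the trafficking gene Trappc9 (-0.32) and Airn (edgeR adjusted p = 0.247, 0.294 and 0.332). Of 28 genes that maintain imprints or the chromatin around them, 25 were tested, of which 16 were higher and 9 lower, with a median log2 fold change of 0.10 and none called. The insulator protein Ctcf had 105 ± 9.02 CPM in CTL and 129.7 ± 15.1 CPM in CKO (SD, n = 5 each, log2 fold change 0.30, edgeR adjusted p = 0.231). The chromatin remodeler Atrx and the silencing factor Smchd1 followed with log2 fold changes of 0.20 and 0.24 (edgeR adjusted p = 0.237 and 0.274). Of the 25, 4 were higher and 1 lower at an unadjusted edgeR p under 0.05, against 5.80% and 7.08% of all tested genes. The 1 lower was the DNA methyltransferase gene Dnmt3a (log2 fold change -0.19, edgeR adjusted p = 0.354). Dnmt3b (-0.18), Dnmt1 (-0.13) and Uhrf1 (-0.13) were lower as well, with edgeR adjusted p from 0.394 to 0.758. Their mention was decided with the numbers at hand. Zfp57, which binds methylated imprinting control regions and was named after its values were seen, had a mean of 18.03 ± 6.52 CPM in CTL and 27.9 ± 6.61 CPM in CKO (log2 fold change 0.64, edgeR adjusted p = 0.336).

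Over the 10 libraries the log2 CPM of the 8 tested genes were related to one another to varying degrees. Of the 28 pairs 20 had a Pearson r above 0, from -0.51 for Cdkn1c with Peg3 to 0.82 for Igf2r with Grb10, with a median of 0.32. Igf2r with Ndn (0.71) and Meg3 with Grb10 (0.70) came next. These are descriptions over 10 libraries that share the 2 genotypes, the scaling and depth. Among 14157 other tested genes the pattern most like Igf2r was that of the glutamate transporter Slc1a1 (r = 0.96), most like Cdkn1c that of Capn10 (0.94), most like Grb10 that of Ccdc62 (0.95) and most like Ndn that of the antioxidant enzyme gene Srxn1 (0.93). For the genes of fewer counts the nearest were Stard5 for Meg3 (0.95), Gm2093 for Peg3 (0.98), Sardh for Plagl1 (0.93) and Gcsh for Mest (0.91). Each partner is the highest of 14157 r values over 10 libraries, so the search itself selects for high r, and no test was made. Slc1a1 had 58 counts in all CKO libraries together, with 0 in CKO 4 and CKO 5.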

How the data were processed

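Reads were mapped by the authors to GRCm38 (mm10 in the labels) with HISAT2 2.1.0 and counted per gene with Rsubread 2.0.1, and the deposited values are raw counts per gene symbol beside a deposited gene length in bases. The annotation, strand setting and handling of multimapping reads are not given in the sources used here. Each library was 1 mouse, grouped by its genotype label. The genes and gene lists were chosen with earlier results of these data known. Genes were filtered with filterByExpr, scaled by TMM and tested with the quasi-likelihood test of edgeR 4.0.16 (R 4.3.3, limma 3.58.1) over all 10 libraries without covariates, with Benjamini-Hochberg adjustment. A gene was called at an adjusted p under 0.05 and a fold change above 20%. The authors used DESeq2 1.24, and DESeq2 1.42.0 was an alternative here. For single values an exact permutation test of the difference in means, two-sided, was used (scipy 1.17.1), whose smallest p is 0.00794 for 5 against 5. CPM were computed with TMM library sizes and RPKM with the deposited lengths. Intervals and floors (3 counts) cover counting error only. Alternatives were DESeq2, its size factors, upper-quartile scaling, no filter, at least 10 counts in every library, limma-voom, a replicate block, Xist as a covariate, an offset for GC content and length, other thresholds, and each library left out. The scripts were tested on simulated data. Positions and overlaps are from GENCODE vM21 (GRCm38), promoter sequences from RefSeq (GRCm38.p6). Named genes were all 10 imprinted genes, Cited2, the 3 tested genes of smallest p in each list with every called gene, the gene most correlated with each tested imprinted gene, genes overlapping them, and, of marker lists, genes at 0 and the most abundant; others are marked as named after their values were seen. The tests rest on 5 libraries a group, and GC content was known for 97% of genes.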

Additional observations from a re-analysis of the deposited data

Results flagged for a closer look

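Within-group gaps were examined for the 10 imprinted genes and Cited2 in both genotypes, 22 groups of 5 libraries. Of these, 4 exceeded the 95% critical value of Dixon's ratio, where chance alone gives about 1 in 20 for normally distributed values. H19 was at 2.535 CPM in CKO 5, and the next CKO library was at 0.247 CPM. Igf2 was at 0.713 CPM in CKO 1 and at 0 in the other CKO libraries. Both rest on few counts, 11 for H19 and 3 for Igf2, with most CKO libraries at 0, so the rate of 1 in 20 does not apply to them. Meg3 was at 15.6 CPM in CKO 3, with the next CKO library at 7.42 CPM, and Cited2 was at 120.1 CPM in the same library, with the next at 8.30 CPM. For Igf2r and Cdkn1c, CKO 3 lay below the CTL range at 11.8 and 39.9 CPM.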

How the results depend on the processing

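The number of genes called (32) was 338 with DESeq2 (146 up, 192 down), 8 with the GC and length offset, 12 with that offset and the replicate block together, 8 at an adjusted p under 0.01, and 8 to 42 when 1 library was left out. It was 24 with the replicate block alone (15 up, 9 down). The replicate numbers did not pair the libraries: same-numbered deviations correlated at -0.095 to 0.208, over 0.1 in 2 of 5 pairs, and 3 libraries matched best with their own number. Of the imprinted growth-control genes edgeR called 0 under each of its alternatives, each library left out included, limma-voom called 0, and DESeq2 called 2, Igf2r at -1.38 and Cdkn1c at -0.47. DESeq2 called 1 proliferation gene and edgeR 0. Mest turned to -0.02 without CKO 3. With 1 library left out the log2 fold change ran from -1.53 to -1.2 for Igf2r, -0.55 to -0.40 for Cdkn1c, -1.32 to -0.77 for Meg3, -0.36 to -0.24 for Grb10, -0.27 to -0.17 for Ndn, -1.16 to -0.60 for Plagl1, 0.20 to 1.57 for Peg3 and -0.02 to 0.39 for Mest. The filter of at least 10 counts in every library removed Peg3 and Plagl1, so these gave no value there. The cause of each shift was not tested. Depth limits H19 and Igf2, which were detected in 5 libraries each.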

Other observations

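Sorted by the allele that is usually expressed, a grouping made after values were seen, all 4 tested maternally expressed genes (Igf2r, Meg3, Cdkn1c and Grb10) had log2 fold changes below 0, from -1.37 to -0.28 with a median of -0.69. The 4 tested paternally expressed genes (Plagl1, Ndn, Mest and Peg3) ran from -0.87 to 0.52 with a median of -0.02, 2 lower and 2 higher. Airn, paternally expressed, was lower as well (-1.02, edgeR adjusted p = 0.332), and Kcnq1ot1, also paternal, was at 0.00. Outside the 10, log2 fold changes of genes known as maternally expressed in at least some tissues lay on both sides of 0. Alleles were not measured, so whether these genes are imprinted in these HSCs is not known. Above 0 were Rian (0.41), Ppp1r9a (0.30), Copg2 (0.22), Ube3a (0.08) and H13 (0.06). Below 0 were Osbpl5 (-0.64), Slc22a18 (-0.45), Phlda2 (-0.44), Tssc4 (-0.34), Trappc9 (-0.32) and Slc22a3 (-0.25). Of these, Ppp1r9a and Copg2 above 0, and Osbpl5, Tssc4, Trappc9 and Slc22a3 below 0, had an unadjusted edgeR p under 0.05. They are examples and not a full list. The difference between maternally and paternally expressed genes was not tested. Among imprinted genes of other clusters that were looked up after values were seen, Gnas had 269.8 ± 10.3 CPM in CTL and 263 ± 18.5 CPM in CKO, and Snrpn had 13.7 ± 3.09 and 15.4 ± 6.76 CPM (SD, n = 5 each), with log2 fold changes of -0.04 and 0.16. Cdkn1a, the CDK inhibitor p21, ranged from 31.7 to 89.9 CPM in CTL and from 30.9 to 85.5 CPM in CKO (log2 fold change 0.03), so its spread within each genotype was wider than that of Cdkn1c.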
